A study of Mus musculus with 2 samples.

Results

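The genes described are 9 members of the chloride-handling system of cortical cells: the cation-chloride cotransporter genes Slc12a2, Slc12a4, Slc12a5 and Slc12a7, the WNK kinase genes Wnk1, Wnk2 and Wnk3, and Stk39 and Oxsr1, which encode the kinases SPAK and OSR1. They were taken by symbol from a list of names, with no cutoff on a measured value, though earlier results of these data were known. All 9 matched 1 gene each among 55536 annotated genes. The 9 genes have 83 annotated transcripts, of which 10 belong to Slc12a5. Total RNA was sequenced from left cerebral cortex of 4-day-old female B6CASTF1/J mice, first-generation hybrids of the C57BL/6J and CAST/EiJ strains. Each library started from 300 ng of RNA and carried ERCC synthetic RNAs, with a profile named for stranded libraries with reduced ribosomal RNA. The series held 1 group of 2 libraries and no contrast of treatment, genotype, age or tissue, so no test between groups could be made. The labels call the libraries biological replicates and number their mice differently, which points to separate animals, but they also give both the same donor identifier. The spread between the libraries covers at least the tissue sample and its library. The tissue is a whole piece of cortex of mixed cell types, of 1 sex and 1 age. CAST/EiJ alleles differ from the reference genome in sequence, and the effect of this on the counts was not tested.

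Neurons set their internal chloride with transporters that couple chloride to sodium and potassium. NKCC1, the product of Slc12a2, carries chloride in, whereas the KCC proteins (KCC1 from Slc12a4, KCC2 from Slc12a5, KCC4 from Slc12a7) carry it out with potassium, and the balance sets how a neuron responds when GABA opens chloride channels. WNK kinases sense chloride and cell volume and act through SPAK and OSR1, which phosphorylate the transporters: NKCC1 is activated by this and the KCC proteins are inhibited. KCC2 is known as the transporter that lowers chloride in maturing neurons, and its gene has a pair of alternative first exons, giving the forms KCC2a and KCC2b, of which KCC2a carries an additional docking site for SPAK in its N terminus.

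Slc12a5 lies on chromosome 2, plus strand, at chr2:164960802-164999731 (mm10, GRCm38; GENCODE M21 annotation). Its upstream first exon, chr2:164960802-164961003, opens the KCC2a form, and its downstream first exon, chr2:164967983-164968454, opens the KCC2b form, with 7181 bases between the starts. The coding part of the upstream exon, chr2:164960883-164961003 (121 bases), is shown because it is what sets the KCC2a form apart, and capitals mark the start codon.
Slc12a5 upstream first exon, coding part: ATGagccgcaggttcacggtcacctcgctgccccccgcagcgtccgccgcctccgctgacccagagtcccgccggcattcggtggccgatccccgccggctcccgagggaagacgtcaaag
The annotated forms differ at a further place, a coding exon of 15 bases at chr2:164996864-164996878, which transcript Slc12a5-207 lacks. It is shown between 20 bases of its neighbouring exons, in capitals where it is included, and without capitals across the junction that skips it.
small exon included: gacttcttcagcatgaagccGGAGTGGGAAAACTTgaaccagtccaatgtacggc
small exon skipped: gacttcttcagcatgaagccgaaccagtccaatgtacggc

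The bases before each Slc12a5 start are shown because the transcript results below turn on which start was used. They come from RefSeq promoter windows on GRCm38.p6, which run from 250 bases before a start to 50 after it, and are cut here at the first annotated transcribed base. The upstream stretch is chr2:164960596-164960801 and the downstream stretch chr2:164967738-164967982, both on the plus strand. Capitals mark CACGTG, the sequence bound by the factors USF1 and USF2.
Slc12a5 upstream start, upstream bases: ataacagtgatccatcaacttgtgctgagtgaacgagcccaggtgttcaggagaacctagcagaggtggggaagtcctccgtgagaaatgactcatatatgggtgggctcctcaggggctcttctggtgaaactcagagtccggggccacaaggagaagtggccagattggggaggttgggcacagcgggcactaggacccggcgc
Slc12a5 downstream start, upstream bases: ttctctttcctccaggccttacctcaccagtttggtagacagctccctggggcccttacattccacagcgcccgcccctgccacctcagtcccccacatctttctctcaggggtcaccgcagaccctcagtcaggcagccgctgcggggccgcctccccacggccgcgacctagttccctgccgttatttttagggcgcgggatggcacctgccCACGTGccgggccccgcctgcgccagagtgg
CACGTG, which reads the same on both strands, was found once in the downstream window, 36 bases before the start that RefSeq gives, which lies just inside the annotated first exon. The upstream window did not hold it. It occurred in 7.15% of all 32841 RefSeq windows of 300 bases. GCGNGGGCG, the core of sites for EGR factors, was searched on both strands and was in neither Slc12a5 window; 5.55% of all windows held it. GGGCGG, the core of Sp1 sites, occurred once in each Slc12a5 window and in 35.7% of all windows. GC content was 63.7% in the upstream and 68.3% in the downstream window, against a median of 52.7%. Over the 9 genes, 8 symbols matched 10 windows, those of Slc12a5 included, and Slc12a2 was not matched. Both overlapping Slc12a7 windows held the same CACGTG, and no window of the remaining genes did. These matches describe the letters only.

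Annotated genes held 29310533 expected counts in replicate 1, and replicate 2 had 28844674. A gene at 0 could hold up to 3 counts, or 0.102 and 0.104 ppm. Markers of excitatory neurons (6 of 6), inhibitory neurons (5 of 5) and astrocytes or radial glia (5 of 5) were detected, as the tissue label implies, with detection set at a TPM (transcript abundance scaled to a fixed total per library) of 1 or more in both libraries. The libraries stood apart in tissue that borders the cortex. The 8 choroid plexus markers, of which 3 were detected and none was at 0 in both libraries, summed to 222 TPM in replicate 1 and 7.72 TPM in replicate 2. Ttr alone had 206 and 1.94 TPM of these, and the other 7 summed to 15.3 and 5.78 TPM. The 6 blood markers, of which 4 were detected and none was at 0 in both, summed to 477 and 63.4 TPM, with Hba-a1 highest. Meningeal markers were detected in 5 of 5 cases and summed to 585 and 654 TPM, with Ptgds highest. Choroid plexus and blood cells also use cotransporters of this family, and the part of these tissues in the values below was not tested.

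All 9 genes were detected, where 27.6% of the 55536 annotated genes were. Levels are TPM, a per-length scale on which genes can be set side by side, from the table of the authors' first quantifier (the first table); a second quantifier gave the second table. Slc12a5 was the most abundant of the 9 and Slc12a7 the least, at the 90.9th and 27.0th percentile of the detected genes. The order by mean TPM was Slc12a5, Wnk1, Wnk2, Wnk3, Stk39, Oxsr1, Slc12a2, Slc12a4 and Slc12a7. Of the 8 neighbouring pairs in this order, 6 did not overlap between genes over the libraries, and the pairs Wnk1 with Wnk2 and Stk39 with Oxsr1 did. By the second quantifier, 6 of 8 neighbours were again apart, but Stk39 stood above Wnk3, and Wnk3 overlapped with Oxsr1. A low level in whole tissue can mean fewer cells of the type that makes the RNA or less RNA per cell, and these cannot be told apart here.

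**Figure D1:**
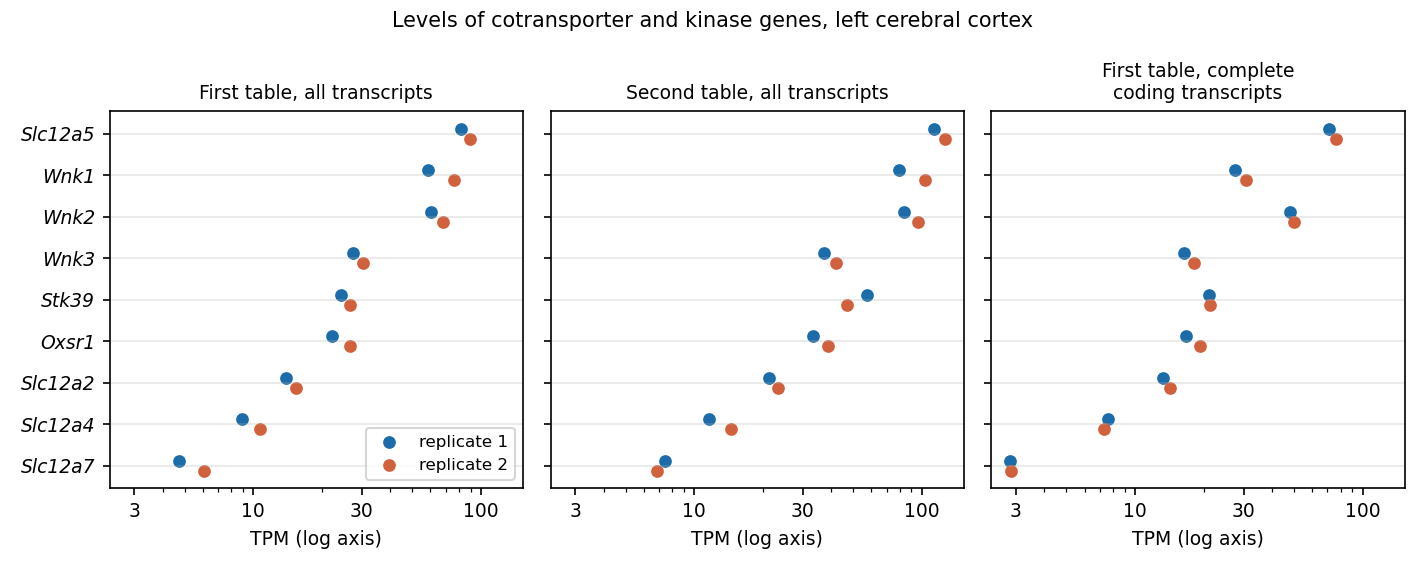
TPM (log axis) of the 9 genes in replicate 1 and replicate 2, from all transcripts in the first table, all transcripts in the second table, and complete coding transcripts in the first table; each point is 1 library. Slc12a5 is highest and Slc12a7 lowest in each panel, and Wnk1 drops below Wnk2 when only complete coding transcripts are summed.

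The importer gene Slc12a2 (ENSMUSG00000024597.11, chromosome 18, 57878678 to 57946821, plus strand) had 14.0 TPM in replicate 1 and 15.4 TPM in replicate 2, from 1714 and 1784 expected counts. This mean of 14.7 ± 0.983 TPM (SD, n = 2) put it at the 50.4th percentile of detected genes, the middle of the range. Its 2 annotated transcripts were of unequal weight. Slc12a2-201, the complete coding form, took 94.1% ± 1.37 of the gene's TPM by the first quantifier and 91.8% ± 2.06 by the second. Slc12a2-202, a retained intron transcript, held the rest, at 0.690 and 1.06 TPM. The scaled Slc12a2 counts had a ratio of 0.975, replicate 1 over replicate 2, with an exact 95% interval of 0.912 to 1.04. Choroid plexus, a tissue in which NKCC1 is abundant, had summed markers of 222 and 7.72 TPM in the same libraries, or 15.3 and 5.78 TPM without Ttr. Intervals of this kind cover counting error only, and no molecular identifiers are named in the sources used here.

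Among the exporter genes, Slc12a5 (ENSMUSG00000017740.17) had 81.4 TPM in replicate 1 and 89.9 TPM in replicate 2. Slc12a4 (ENSMUSG00000017765.17, chromosome 8, 105943590 to 105966097, minus strand), whose product KCC1 is a widely expressed volume regulator, had 8.91 and 10.7 TPM. Slc12a7 (ENSMUSG00000017756.9, chromosome 13, 73733094 to 73816754, plus strand), encoding KCC4, had 4.70 and 6.10 TPM. The levels of the 3 genes did not overlap. Slc12a5 was 9.13-fold and 8.40-fold above Slc12a4 in the libraries, a log2 ratio of 3.01 ± 0.07 (SD, n = 2, on TPM + 1), and 17.3-fold and 14.7-fold above Slc12a7, a log2 ratio of 3.77 ± 0.12. Of the TPM summed over these 3 genes it took 85.0% ± 1.00, Slc12a4 9.70% ± 0.460 and Slc12a7 5.33% ± 0.545, and the second table gave Slc12a5 85.5% ± 0.0488. These shares are of the 3 genes alone.

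Slc12a2 lay between the exporters. Its log2 ratio over Slc12a5 was -2.47 in the first table, -2.37 in the second table, and -2.34 when only complete coding transcripts were summed. Set against the minor exporters, Slc12a2 was 1.57-fold and 1.44-fold above Slc12a4, a log2 ratio of 0.54 ± 0.08 that stayed under the size of 1 used to call a pair apart. It was 2.97-fold and 2.52-fold above Slc12a7, a log2 ratio of 1.30 ± 0.13, which was called apart. Slc12a7 over Slc12a4 had a log2 ratio of -0.76 ± 0.05, not called apart, but -1.14 ± 0.04 over complete coding transcripts, which was. Of 10 pairs examined, 6 were called apart.

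**Figure D2:**
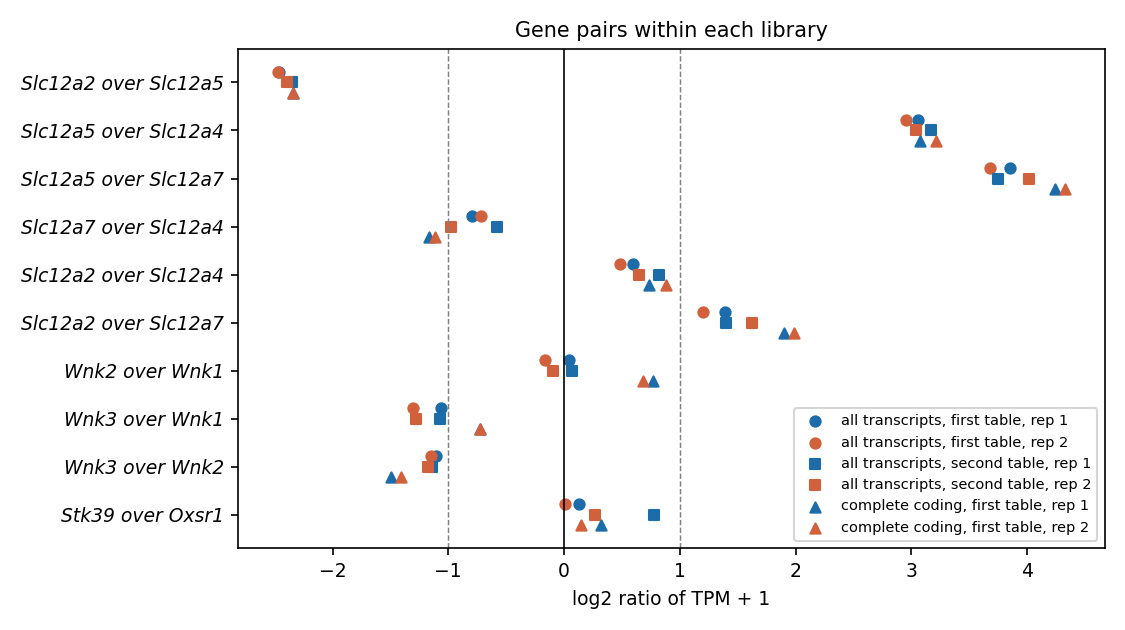
Log2 ratio of TPM + 1 between 10 gene pairs within each library (colours, replicates), from all transcripts in the first table (circles) and second table (squares) and from complete coding transcripts in the first table (triangles); dashed lines mark a ratio of 1 in size. Wnk2 over Wnk1 straddles 0 with all transcripts and reaches 0.77 and 0.68 with complete coding ones.

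Both first exons of Slc12a5 were in use. Over all its transcripts, those with the upstream (KCC2a) exon had 29.4 TPM in replicate 1 and 30.7 TPM in replicate 2, and those with the downstream (KCC2b) exon 43.1 and 47.1 TPM. The upstream start thus took 35.2% ± 1.42 of the gene's TPM and the downstream start 52.7% ± 0.398, with the remaining 12.1% ± 1.82 in retained intron fragments that begin inside the gene. The second table gave 35.0% ± 0.0509, 52.6% ± 2.62 and 12.4% ± 2.57. These summed shares differed between quantifiers by less than the spread between libraries in the first table, but their parts differed. Slc12a5-203, an upstream nonsense-mediated decay transcript of 422 bases, had 0.780 and 0.640 TPM in the first table. The second gave it 6.70 and 7.40 TPM, or 5.89% ± 0.0654 of the gene. Upstream coding transcripts had 28.7 and 30.1 of the gene's 81.4 and 89.9 TPM in the first table. In the second they had 32.7 and 34.1 of 113 and 127 TPM. On the scale of expected counts, which weighs long transcripts more, the upstream share was 42.3% ± 2.21.

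Which upstream transcript held those reads differed between the tables. Slc12a5-201, the full-length downstream form with the 15-base exon (6028 bases), had 26.5 and 30.8 TPM by the first quantifier, or 33.4% ± 1.24 of the gene. The second quantifier gave it 52.6 and 58.0 TPM, or 46.2% ± 0.519. Slc12a5-207, the upstream form without the 15-base exon (5690 bases), had 21.6 and 19.7 TPM in the first table, or 24.2% ± 3.20, but 8.66 and 5.74 TPM in the second, or 6.11% ± 2.22. Slc12a5-209, the upstream form with the 15-base exon, had 7.11 and 10.3 TPM, or 10.1% ± 1.95, in the first table, against 24.1 and 28.4 TPM, or 21.9% ± 0.785, in the second. The upstream forms therefore changed places between the quantifiers in both libraries. The authors' posterior SD of the count in replicate 1 was 247 reads for Slc12a5-201, 231 for Slc12a5-207 and 108 for Slc12a5-209, against 0 for the gene as a whole: reads were hard to place among its transcripts, not between it and other genes.

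Slc12a5-209 is annotated with 3574 bases and lacks 2162 bases of the 3′ end of Slc12a5-201. The annotation holds no full-length downstream transcript without the 15-base exon, and no upstream transcript with both that exon and the long 3′ end. Among the 3 full-length coding transcripts, the upstream start took 50.7% ± 1.83 by the first quantifier and 37.7% ± 0.939 by the second, and the form without the small exon 35.8% ± 4.71 and 8.19% ± 2.77. These differences between tables were larger than the spread between libraries, and the first exon, small exon and 3′ end cannot be told apart in these values. The shorter Slc12a5-208 (1202 bases, downstream start) had 16.2 and 15.6 TPM by the first quantifier, and 7.27 and 4.46 TPM by the second. The retained intron fragment Slc12a5-204 had 6.54 and 9.93 TPM, or 9.54% ± 2.13 of the gene.

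**Figure D3:**
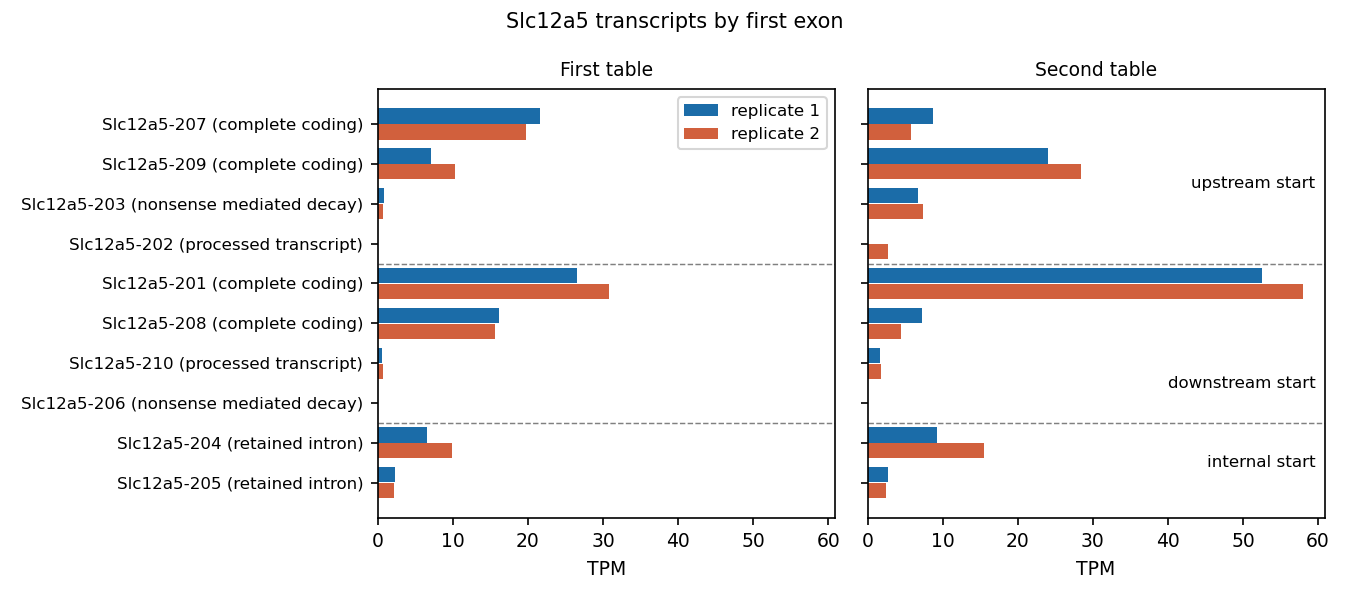
TPM of the 10 annotated Slc12a5 transcripts in each library (bars: replicate 1 above replicate 2), grouped by upstream, downstream or internal start, in the first table and the second table. Slc12a5-207 exceeds Slc12a5-209 in the first table (21.6 and 19.7 against 7.11 and 10.3 TPM) and lies under it in the second (8.66 and 5.74 against 24.1 and 28.4 TPM).

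The WNK kinase genes were led by a pair that could not be ordered. Wnk1 (ENSMUSG00000045962.16, chromosome 6, 119923969 to 120038672, minus strand), the broadly expressed member, had 58.4 and 76.3 TPM. Wnk2 (ENSMUSG00000037989.15, chromosome 13, 49036303 to 49148014, minus strand), known as a brain-enriched member, had 60.2 and 68.2 TPM. Wnk3 (ENSMUSG00000041245.13, chromosome X, 151198078 to 151320152, plus strand), which activates NKCC1 and inhibits KCC proteins when expressed with them, had 27.4 and 30.3 TPM. Wnk2 and Wnk1 overlapped, with a log2 ratio of -0.06 ± 0.14, and Wnk3 lay under both, at -1.13 ± 0.03 against Wnk2 and -1.19 ± 0.17 against Wnk1. Of the TPM of the 3 genes, Wnk1 took 41.8% ± 2.60, Wnk2 40.1% ± 1.59 and Wnk3 18.0% ± 1.02. Wnk4, not among the named genes, had 2.70 and 3.08 TPM.

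The overlap of Wnk2 and Wnk1 held only while all annotated transcripts were summed. Complete coding transcripts of Wnk2 had 47.7 and 49.7 TPM, and those of Wnk1 27.6 and 30.7 TPM, with no overlap and a log2 ratio of 0.72 ± 0.06 in the first table (0.75 ± 0.05 in the second). By the same measure Wnk3 over Wnk1 shrank in size to -0.72 ± 0.00, no longer called apart. Complete coding transcripts made 47.2% and 40.2% of Wnk1's TPM but 82.6% and 78.3% of its expected counts, the other TPM lying in short fragments and retained introns.

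Of the Wnk1 transcripts, the full-length Wnk1-202 (10575 bases) had 20.3 and 23.6 TPM, or 32.9% ± 2.80 of the gene. The retained intron transcript Wnk1-208 had 9.57 and 9.77 TPM in the first table but 1.26 and 0.400 TPM in the second, 14.6% ± 2.54 and 0.988% ± 0.850 of the gene. Wnk1-216, a coding fragment of 843 bases with incomplete ends, had 7.69 and 9.30 TPM. Nervous system forms of WNK1 are known to carry a large extra exon. Of 5 full-length coding Wnk1 transcripts, 2 (Wnk1-203 and Wnk1-223) hold a 1236-base exon at chr6:119962397-119963632 that Wnk1-202 lacks; the annotation does not name it, and whether it is that known exon was not tested. These 2 transcripts together had 3.55 and 3.45 TPM, or 13.5% ± 1.14 of full-length coding Wnk1, and 18.4% ± 0.582 in the second table. Wnk1-218, a shorter coding transcript of a single exon that spans the same bases, is not among the full-length ones and had a further 2.76 and 3.48 TPM.

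Wnk2-205 (6882 bases) led Wnk2 with 33.7 and 34.9 TPM, 53.6% ± 3.40 of the gene, and 38.1% ± 4.23 in the second table, where Wnk2-211, Wnk2-207 and Wnk2-201 took 17.6%, 12.6% and 11.2%. The full-length Wnk2-202 was listed at 0 TPM in replicate 1 and at 5.63 TPM in replicate 2, and at close to 0 in both by the second quantifier. Wnk2-206, an incomplete coding form, had 8.66 and 9.57 TPM. Wnk2-208, a nonsense-mediated decay transcript of 682 bases, had 1.21 TPM in replicate 1 and 7.60 TPM in replicate 2, from 13.7 and 81.9 expected counts, and the second table gave 0.0239 and 10.1 TPM. The libraries thus differed for this short form in both tables.

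The most abundant Wnk3 transcript was not a coding one. Wnk3-203, annotated as a processed transcript of 6410 bases, had 11.1 and 11.7 TPM, 39.5% ± 1.23 of the gene by the first quantifier and 37.9% ± 1.37 by the second. Of its bases, 4966 lie beyond the end of the coding transcripts Wnk3-205 and Wnk3-206, so it is mostly the far 3′ part of the locus. The longer coding transcript Wnk3-201 (8551 bases) ends at chrX:151318309, so it runs into this part, while Wnk3-203 ends at chrX:151320152. Wnk3-201 was listed at 0 by the first quantifier and at 1.67 and 1.15 TPM by the second. Complete coding transcripts together held 59.6% and 60.0% of the gene's TPM in the first table.

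Wnk3-205 and Wnk3-206 are alike but for the end of 1 coding exon, which is 141 bases longer in Wnk3-205, at chrX:151293901-151294041, plus strand. The stretch is shown, from the GENCODE M21 transcript, because it alone separates Wnk3-205 from Wnk3-206.
Wnk3-205 extra coding stretch: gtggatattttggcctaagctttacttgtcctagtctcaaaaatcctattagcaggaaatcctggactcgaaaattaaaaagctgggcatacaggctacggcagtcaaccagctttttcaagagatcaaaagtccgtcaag
Wnk3-205 had 6.53 and 11.0 TPM and Wnk3-206 9.80 and 7.13 TPM. Wnk3-205 was the lower form in replicate 1 and the higher in replicate 2, at 40.0% and 60.7% of their sum. The second table gave 37.3% and 53.5%. Neither form led in both libraries. The first quantifier's TPM intervals for Wnk3-205 and Wnk3-206 overlapped in each library. They were 4.11 to 7.90 and 7.51 to 11.3 TPM in replicate 1, and 7.27 to 13.4 and 3.79 to 9.75 TPM in replicate 2.

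The kinases between WNKs and transporters were close to each other. Stk39 (ENSMUSG00000027030.15, chromosome 2, 68210445 to 68472268, minus strand), encoding SPAK, had 24.2 and 26.6 TPM. Oxsr1 (ENSMUSG00000036737.12, chromosome 9, 119238432 to 119322427, minus strand), encoding OSR1, had 22.1 and 26.5 TPM. They overlapped, with a log2 ratio for Stk39 over Oxsr1 of 0.07 ± 0.09. By the second quantifier Stk39 had 57.4 and 46.9 TPM and Oxsr1 33.1 and 38.8 TPM, with no overlap and a log2 ratio of 0.52 ± 0.36, which was still not called apart.

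Second-table TPM was 1.33 to 1.52 times the first-table TPM in the other 8 genes and 2.05 times in Stk39. The extra level of Stk39 sat in short processed transcripts: Stk39-205 (492 bases) had 15.6 and 6.13 TPM in the second table, against 0.440 and 0 TPM in the first, and Stk39-208 had 6.99 and 3.19 TPM, against 0.400 and 0.550 TPM. The complete coding transcript Stk39-201 had 21.1 and 21.4 TPM in the first table, 83.8% ± 4.55 of the gene, and 30.9 and 31.3 TPM in the second. Oxsr1-201, also complete, had 16.7 and 19.3 TPM, 74.0% ± 2.08 of the gene, and the retained intron transcript Oxsr1-203 had 4.16 and 6.45 TPM. On complete coding transcripts alone Stk39 and Oxsr1 did not overlap, with a log2 ratio of 0.23 ± 0.12.

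Across the 9 genes the most abundant transcript was the same in both libraries in 9 of 9 and the same in both tables in 8 of 9. The exception was Slc12a4, led by Slc12a4-202 at 73.2% ± 6.51 by the first quantifier and by Slc12a4-201 at 54.8% ± 1.49 by the second; both are complete coding transcripts of similar length. The leading transcript took at least 50% of the gene in both libraries in 5 of 9 genes. Of 83 annotated transcripts, 33 reached 10% of their gene in some library and table, and 6 were at 0 in every library and table.

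Retained intron transcripts took a larger share of the gene's TPM in replicate 2 in all 7 genes that have them, in both tables. Across the series this was the common direction: of detected genes with such a transcript above 0, 71.3% had the larger share in replicate 2 in the first table, 70.2% in the second, and 59.1% in both. Of the 7 genes, Wnk1 barely differed, with 30.4% in replicate 2 and 30.3% in replicate 1. In the first table the share was 43.4% in replicate 2 and 13.8% in replicate 1 for Slc12a7, and 31.4% and 12.1% for Slc12a4. By expected counts these shares were 18.4% and 9.47% for Slc12a7, and 5.76% and 2.14% for Slc12a4, since short transcripts weigh more in TPM. For Slc12a7, 1.74 of the 6.10 TPM in replicate 2 were those of Slc12a7-206, a retained intron transcript of 356 bases given 8.25 expected counts, which was at 0 in replicate 1 and in the second table. The complete coding transcript Slc12a7-201 had 2.83 and 2.85 TPM.

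**Figure D4:**
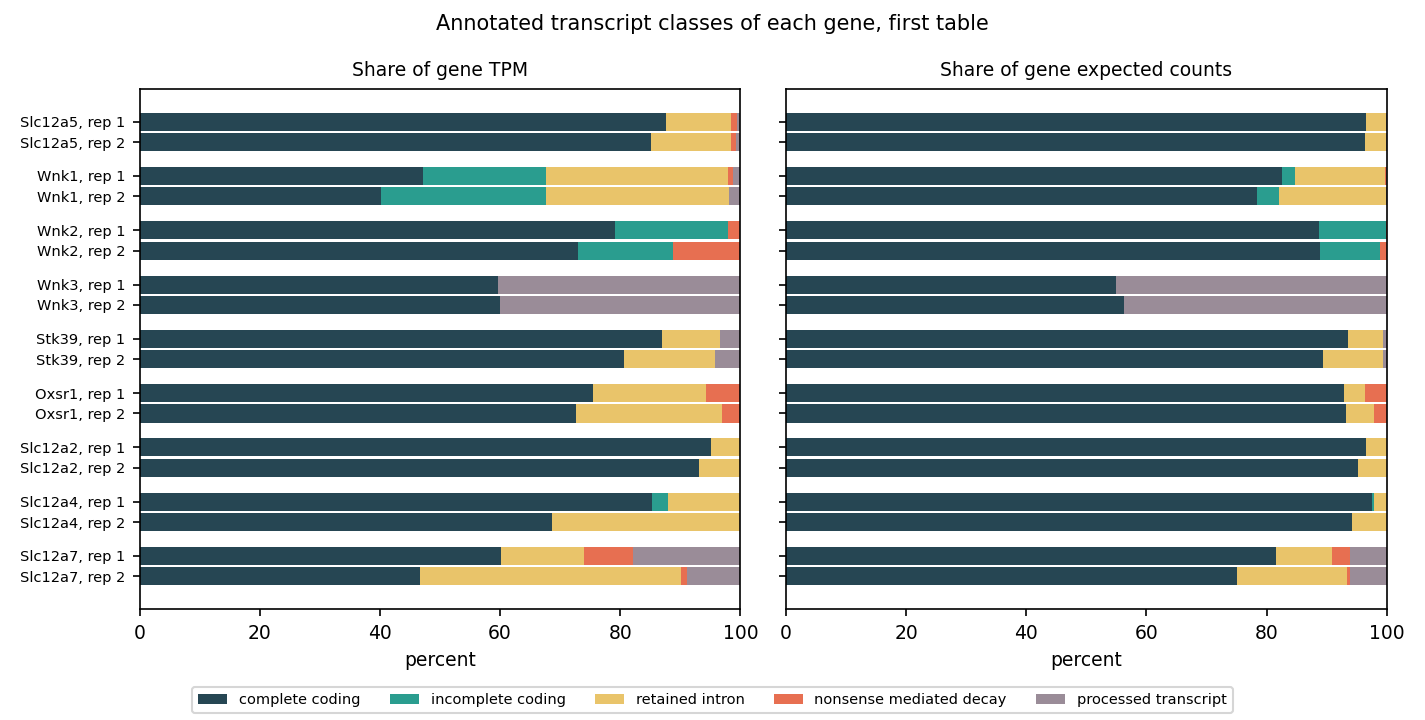
Share of each gene's TPM (left) and expected counts (right), in percent, taken by 5 annotated transcript classes in each library, first table. Complete coding transcripts hold under 50% of Wnk1's TPM (47.2% and 40.2%) but most of its counts (82.6% and 78.3%), and Wnk3 has the largest share of a processed transcript.

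The libraries were close in counts for these genes. Of the 9, 0 differed by a 2-fold ratio or more between the scaled counts of the libraries. Of the 18492 genes whose counts summed to 20 or more, 4.25% did. The exact 95% interval of the ratio excluded 1 for 2 of 9, where it did for 34.1% of all genes tested. These were Wnk1, at 0.916 (0.885 to 0.948) from 6210 and 6884 counts, and Oxsr1, at 0.928 (0.866 to 0.994) from 1587 and 1736 counts. The least counted gene, Slc12a7, had 340 and 354 counts and a ratio of 0.975 (0.838 to 1.13). Scaled counts were higher in replicate 2 for 7 of 9, against 48.3% of all genes tested.

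On the TPM scale 9 of 9 were higher in replicate 2, against 65.2% of detected genes, with ratios of replicate 1 over replicate 2 from 0.765 for Wnk1 to 0.910 for Stk39. The median log2 TPM ratio was -0.18 over the 9 genes and -0.07 over all detected genes, against median log2 count ratios of -0.03 and 0.02. The TPM of complete coding transcripts moved less for the lowest genes: Slc12a7 had a ratio of 0.993 and Slc12a4 1.04 on it, against 0.770 and 0.833 for the whole gene. In Slc12a7 and Slc12a4 the share of retained intron transcripts also differed, as described above, and its part in this was not tested. For Wnk1 that share was 30.3% and 30.4%, while incomplete coding fragments took 20.4% in replicate 1 and 27.5% in replicate 2. Wnk2 and Wnk3 have no annotated retained intron transcript.

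**Figure D5:**
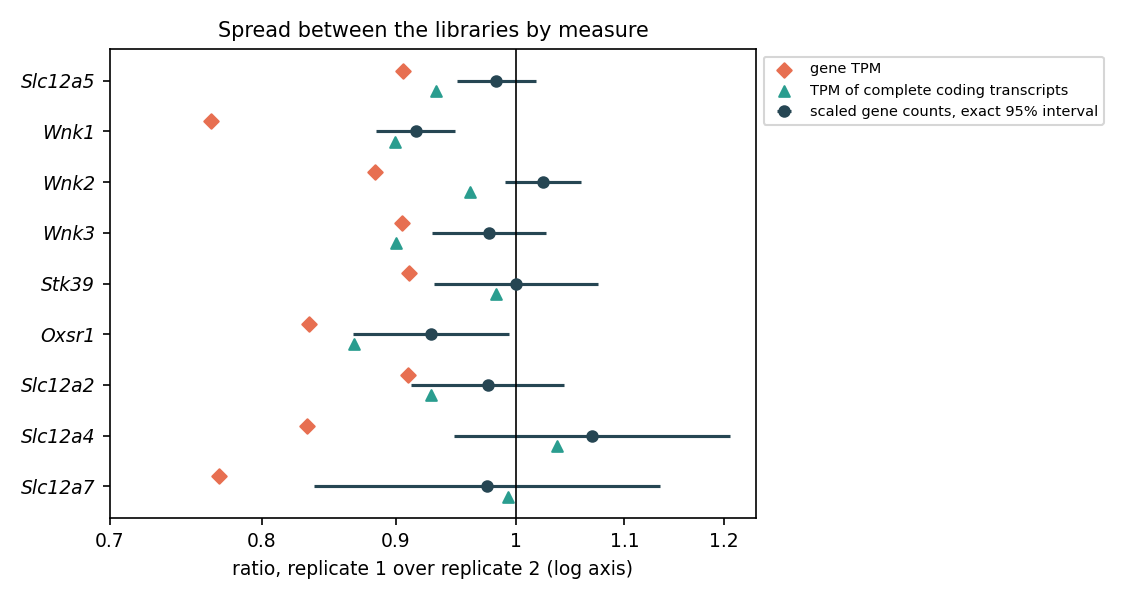
Ratio of replicate 1 over replicate 2 (log axis) for each gene in scaled counts (circles, with exact 95% intervals for counting error), gene TPM (diamonds) and TPM of complete coding transcripts (triangles). Gene TPM ratios all lie under 1, from 0.765 in Wnk1, while count intervals exclude 1 for Wnk1 and Oxsr1 alone.

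Other genes of the pathway were taken from lists chosen with earlier results of these data known, so full detection of a list is description only. Of all 55536 annotated genes, 27.6% were detected. Elsewhere in the SLC12 family Slc12a9, an orphan member, was detected at 15.2 ± 0.686 TPM. The kidney transporters Slc12a1 and Slc12a3 had 0.060 ± 0.00 and 0.090 ± 0.0707 TPM, with Slc12a8 at 0.735 ± 0.0212 TPM. All 11 genes that act on the kinases and transporters were detected, with a median of 67.3 TPM against 25.4 TPM over the 9 genes and 14.5 TPM over all detected genes. The highest were the protein phosphatase 1 catalytic subunits Ppp1cb (180 ± 0.403 TPM), Ppp1ca (159 ± 1.44 TPM) and Ppp1cc (105 ± 0.240 TPM), which dephosphorylate these proteins, and Nedd4l, a ubiquitin ligase (74.4 ± 8.99 TPM). Cab39l, a scaffold that activates SPAK and OSR1, and Wnk4 were lowest, at 7.91 ± 1.05 and 2.89 ± 0.269 TPM.

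All 12 listed partners and regulators of KCC2 were detected, beside 27.6% of all annotated genes, with a median of 60.6 TPM. Creatine kinase B (Ckb, 345 ± 18.3 TPM) was highest, followed by the BDNF receptor gene Ntrk2 (138 ± 6.28 TPM), Epb41l1 (112 ± 7.31 TPM), of the protein 4.1 family that ties KCC2 to actin, and Arhgef7 (105 ± 2.18 TPM), a KCC2-bound exchange factor. Lowest were Bdnf and Egr4, an EGR factor reported to act on the Slc12a5 promoter, at 2.50 ± 0.0424 and 2.19 ± 0.184 TPM, against 85.6 ± 6.01 TPM for Slc12a5. Of other routes for chloride and bicarbonate all 14 were detected, beside the same 27.6%, with a median of 28.8 TPM. Clcn4 (89.0 ± 0.969 TPM), an endosomal chloride-proton exchanger, was at a level near that of Slc12a5 (85.6 ± 6.01 TPM). Slc4a3 (71.7 ± 0.156 TPM), an anion exchanger, Clcn3 (59.4 ± 1.56 TPM) and Clcn6 (41.7 ± 1.84 TPM) came next. Carbonic anhydrases were lowest: Car2 had 11.6 ± 0.721 TPM and Car7, the neuronal form that appears later in hippocampal development, 1.88 ± 0.0354 TPM.

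Overlapping annotation touched 4 of the 9 genes, and whether counting used strand is not stated in the sources used here. Gm16156, antisense to Slc12a4, had 0.080 and 0.090 TPM, and A230072E10Rik, antisense to Wnk3, 0.340 and 0.300 TPM. Slc22a14, which overlaps Oxsr1 on its own strand, had 0.050 and 0.030 TPM. The processed pseudogene Gm16199 inside Wnk1 had 13.1 and 11.3 TPM from 47.9 and 39.5 expected counts, and was at 0 in the second table. The posterior SD of the gene count was 0 for all 9 genes in both libraries, so the first quantifier gave no uncertainty to their gene totals.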

How the data were processed

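For each of the 2 libraries, 3 tables were used: genes and transcripts from a first quantifier, and transcripts from a second one. Per the file headers, the first tables give expected counts, with reads shared between features split by the authors' quantifier, TPM scaled by effective length, and the percent of a gene's TPM taken by each transcript. Posterior mean TPM and posterior standard deviations of counts were deposited by the authors in the same tables. The second table, as deposited, gives estimated counts and TPM per transcript, which were summed here over the annotated transcripts of a gene. The assembly is mm10 with GENCODE M21, per the deposited file descriptions; the aligner and the quantifiers' versions were not given in the sources used here.

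Spike-ins, phiX and entries without a gene name stayed out of library sizes; together they held 0.330% and 0.346% of counts. Detection meant at least 1 TPM in both libraries. For gene pairs, 1 was added to each TPM, the log2 ratio was taken within each library, and a pair was called apart where it reached 1 in size with 1 sign in both. Neighbours in the order of levels were apart where library values did not overlap. Counts were rounded to whole numbers, scaled with TMM factors of 0.985 and 1.02 (edgeR 4.0.16, R 4.3.3) and compared as ratios with exact 95% Clopper-Pearson intervals; for log2 count ratios, 0.5 was added to both counts, and their sum had to reach 20. Complete coding transcripts are protein-coding ones without incomplete ends in the annotation, and full-length ones have more than 3000 coding bases. Other steps ran in Python 3.11.15 with pandas 2.3.3, numpy 2.4.6 and scipy 1.17.1; figures were drawn with matplotlib 3.10.9. The ratio calculation was tested on simulated data.

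The members, lists and thresholds were chosen with earlier results of these data known. Named are all 9 genes; of each other list that is not a marker list the 4 highest and 2 lowest genes by mean TPM; and transcripts that took at least 10% of a gene in a library and table. Transcripts at or near 0, the short upstream Slc12a5-203, the long Wnk1 forms and the overlapping genes were named after their values were seen. Alternatives were other thresholds, pseudocounts and scalings, the second table, posterior means, expected counts and leaving out each library; complete coding transcripts and the Slc12a5 start share were added after seeing the data. Some results that these rules name are left out.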

Additional observations from a re-analysis of the deposited data

How the results depend on the processing

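Of 215 recalculations of 39 results, 182 stayed on the same side and within the set limits. Wnk2 over Wnk1 turned sign, to 0.044 without replicate 2 and to 0.72 and 0.75 (first and second table) over complete coding transcripts. On these transcripts Slc12a7 over Slc12a4 passed a size of 1, at -1.14 and -1.28, and Wnk3 over Wnk1 fell under it, at -0.72 and -0.79. The leading Slc12a5 transcript took 46.2% in the second table and 49.1% of expected counts. The upstream share of Slc12a5 was 42.3% of counts, and 50.7% and 37.7% of full-length coding transcripts in the first and second table. Detected choroid plexus markers numbered 6 at 0.5 TPM and 5 in the second table. Leaving out 1 library gave 3 to 7 choroid plexus markers, 4 to 5 blood markers, 5 to 6 genes with a leading transcript of at least 50%, -0.16 to 0.044 for Wnk2 over Wnk1, and 34.2% to 36.2% for the upstream share. The cause of these shifts was not tested, beyond the transcripts each setting sums. No paired analysis was possible because the series has only 1 group. Leaving out a library gives no value for the overlap of neighbours or the ratio between libraries. The least counted gene, Slc12a7, had 340 and 354 counts, which limits the precision of its transcript shares.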
